A study of Mus musculus with 6 samples.

Results

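The genes described here are 10 genes of endothelial cells and of the barrier they form in the spinal cord, Cldn5, Slc2a1, Abcb1a, Mfsd2a, Cdh5, Pecam1, Flt1, Kdr, Plvap and Vwf. They were taken by symbol, each stood on 1 row of the table, and they are 10 of the 56859 genes listed. RNA was sequenced from spinal cord of wild-type mice 6 weeks after contusion at thoracic level T10. The injury group (n = 3) carried the contusion. Per the labels' protocols, the solvent of DMSO and SBE-β-CD saline was given to controls, but the labels do not say that the injury group is that control. The injury + AZ876 group (n = 3) carried the same contusion and was given the LXR agonist AZ876 (LXR, the liver X receptors, which sense oxysterols) intraperitoneally at 5 mg/kg each day over 1 week after injury. The labels give neither the age of the mice nor whether replicates were separate animals, and no uninjured cord was analysed here, so every value describes injured tissue.

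Endothelial cells of the spinal cord are joined by tight junctions, suppress vesicle traffic across the cell and carry a dense set of transporters, and together these features make the blood-spinal cord barrier. Claudin-5 seals the junctions, GLUT1 brings in glucose, P-glycoprotein pumps out drugs and lipophilic compounds, and MFSD2A imports lysophospholipids and restrains caveolar transcytosis. PLVAP, in contrast, forms the diaphragms of fenestrae and vesicles and marks vessels without a barrier. VE-cadherin and PECAM-1 are found in endothelium of all organs, and von Willebrand factor is stored mainly in endothelium of larger vessels.

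None of the 10 genes passed the test of AZ876 against injury. The 2 genes that stood highest relative to injury were general endothelial ones, Cdh5 at 1.5 times and Kdr at 1.39 times the injury mean, and the lowest was the barrier gene Mfsd2a at 0.517 times. The barrier genes were split, with Cldn5 and Abcb1a higher on average and Slc2a1 and Mfsd2a lower, and the leaky-vessel gene Plvap was also lower on average. Of the 17599 genes tested, edgeR called 0 at an adjusted p under 0.05, or 0% (2592 had an unadjusted p under 0.05, DESeq2 called 178 and limma-voom 0), so the count of 0 among the 10 genes is the same as the background. At an unadjusted p under 0.05 stood 3 of the 10 genes, Cdh5 and Kdr higher and Mfsd2a lower, against 14.7% of all genes tested. The groups did not overlap for 4 of the 10, Abcb1a, Cdh5 and Kdr higher and Mfsd2a lower, against 18.8% of all genes tested (10.2% higher and 8.64% lower). With so few genes neither count sets the list apart.

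**Figure D1:**
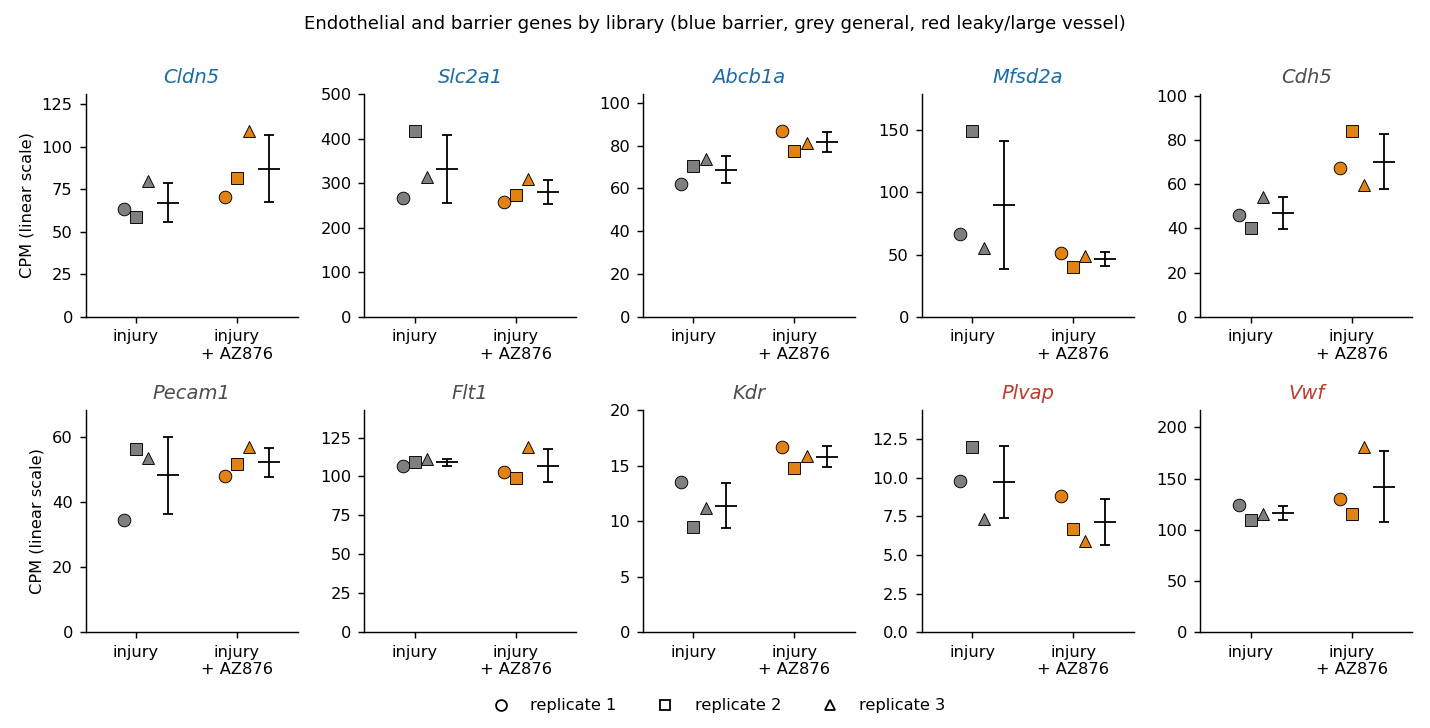
Level of each gene in each library, in CPM, counts scaled to library size (linear axis from 0), with marker shape for the replicate number and the mean ± SD (n = 3) at the right of each group. The AZ876 libraries lie above every injury library for Abcb1a, Cdh5 and Kdr and below every one for Mfsd2a, where injury replicate 2 stands at 149 CPM.

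The libraries held between 14067649 and 20211175 counts, and each of the 10 genes had at least 95 counts in every library. CPM denotes counts scaled to library size (TMM). On the main axis of variation over all genes, which held 55.4% of the variance, AZ876 replicate 1 (−7.17) and injury replicate 3 (6.31) lay close together, between the other injury libraries (−40.6 and −52.3) and the other AZ876 libraries (44.2 and 49.5). In bulk tissue, fewer endothelial cells and less RNA per endothelial cell cannot be told apart.

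Cldn5, the tight junction gene (chromosome 16, plus strand, from 18595597 to 18597012 in the table's build, which is not named), was at 63.2, 58.4 and 79.9 CPM in injury replicates 1, 2 and 3 and at 70.5, 81.8 and 109 CPM in AZ876 replicates 1, 2 and 3. The groups overlapped, since injury replicate 3 lay above AZ876 replicate 1. The log2 fold change was 0.38 ± 0.19 (SE), for an edgeR adjusted p of 0.370, and it was 0.18 without AZ876 replicate 3. That library also had the highest summed erythroid markers, 17200 CPM against 1810 to 4660 CPM in the other 5, and the part of blood content in the Cldn5 value was not tested.

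Abcb1a, which encodes P-glycoprotein (chromosome 5, plus strand, from 8710077 to 8798575), was at 61.9, 70.5 and 73.8 CPM in the injury libraries and at 86.6, 77.2 and 81.2 CPM in the AZ876 libraries. Every AZ876 library lay above every injury library, though the gap between the groups was only from 73.8 to 77.2 CPM. Its log2 fold change was 0.25 ± 0.11 (SE), for an edgeR adjusted p of 0.346. Abcb1b, the neighbouring near copy that encodes a second P-glycoprotein, was at 10.7 ± 2.35 CPM in injury and 12.2 ± 3.02 CPM in AZ876 libraries (SD, n = 3 each). It took between 9.64% and 15.8% of the counts of the pair, and since how the authors counted multi-mapping reads is not given here, the division of counts between the copies is uncertain.

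Slc2a1, the GLUT1 glucose transporter gene (chromosome 4, plus strand, from 118965908 to 118995180), was at 267, 417 and 315 CPM in the injury libraries and at 258, 275 and 311 CPM in the AZ876 libraries. The groups overlapped, and injury replicate 2 stood above the other 5 libraries. Its log2 fold change was −0.24 ± 0.18 (SE), for an edgeR adjusted p of 0.499, and without injury replicate 2 it was −0.05. Astrocytes also make this transporter, so its level is not endothelial alone.

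Mfsd2a, the lysophospholipid transporter gene (chromosome 4, minus strand, from 122840643 to 122854981), was at 66.2, 149 and 55.1 CPM in the injury libraries and at 51.1, 40.2 and 48.7 CPM in the AZ876 libraries. All AZ876 libraries lay below all injury libraries, but the nearest values, 51.1 and 55.1 CPM, were close, and injury replicate 2 was far above the rest. With that library the log2 fold change was −0.95 ± 0.36 (SE; 95% interval −1.78 to −0.13) with an edgeR adjusted p of 0.330, and without it the log2 fold change was −0.38. Slc2a1 and Mfsd2a therefore both peaked in injury replicate 2.

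The sequences upstream of Slc2a1 and Mfsd2a are shown because these barrier genes had their highest level in the same library. They are the 250 bases before the annotated start, from RefSeq on GRCm38.p6, for Slc2a1 chr4:119108495-119108744 on the plus strand and for Mfsd2a chr4:122961189-122961438 on the minus strand. These windows do not adjoin the gene spans given above. Those spans are in the table's unnamed build, whose positions do not match GRCm38.p6, so the coordinates cannot be set side by side. Capitals mark matches to the letters searched on both strands, the ETS cores CCGGAA and AGGAAG, the TCF/LEF core CTTTGA, the GATA core AGATAA, the SOX core ACAAT, the LXR hexamer AGGTCA and its direct repeat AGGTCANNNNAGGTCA, which contains the hexamer.
Slc2a1: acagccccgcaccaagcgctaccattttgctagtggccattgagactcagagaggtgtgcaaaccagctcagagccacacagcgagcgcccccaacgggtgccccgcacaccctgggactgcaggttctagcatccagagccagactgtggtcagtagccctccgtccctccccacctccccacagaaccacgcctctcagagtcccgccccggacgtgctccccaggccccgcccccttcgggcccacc
Mfsd2a: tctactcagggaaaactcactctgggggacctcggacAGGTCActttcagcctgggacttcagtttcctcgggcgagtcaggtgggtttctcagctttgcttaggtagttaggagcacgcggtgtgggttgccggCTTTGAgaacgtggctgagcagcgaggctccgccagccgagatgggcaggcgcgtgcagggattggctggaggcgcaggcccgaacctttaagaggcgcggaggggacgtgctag
The Slc2a1 window held 0 of these matches. The Mfsd2a window held 1 match to AGGTCA, from 213 to 208 bases before the start, and 1 to CTTTGA, from 115 to 110 bases before it. Among all 32851 windows of 250 bases in the RefSeq table, 14% held AGGTCA, 13.8% CTTTGA and 0.0152% the direct repeat. A match of letters is a description and no measure of binding. Of the 10 genes, 6 were matched to the table by symbol, Slc2a1, Mfsd2a, Abcb1a, Cldn5, Flt1 and Kdr.

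Cdh5, the VE-cadherin gene (chromosome 8, plus strand, from 104828257 to 104871143), was at 46.2, 40.2 and 54.4 CPM in the injury libraries and at 67.2, 83.9 and 59.7 CPM in the AZ876 libraries. The AZ876 libraries were all higher, with AZ876 replicate 2 the highest. The log2 fold change was 0.58 ± 0.17 (SE; 95% interval 0.19 to 0.98), the unadjusted p was 0.00927, the smallest of the 10 genes, and the edgeR adjusted p was 0.330. It ranged from 0.43 without AZ876 replicate 2 to 0.70 without injury replicate 3.

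Pecam1, which encodes the adhesion molecule PECAM-1 or CD31 (chromosome 11, minus strand, from 106545043 to 106641454), did not share that pattern. It was at 34.6, 56.5 and 53.7 CPM in injury and at 48.2, 51.6 and 57.0 CPM in AZ876 libraries, so the AZ876 values lay within or just above the span of the injury values. Its log2 fold change was 0.12 ± 0.19 (SE), for an edgeR adjusted p of 0.777, and it changed sign to −0.08 without injury replicate 1, the lowest library. Platelets and myeloid cells also make PECAM-1.

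Flt1 and Kdr encode the receptors VEGFR1 and VEGFR2 for vascular endothelial growth factor. Kdr carries most of the growth signal, and Flt1 binds the ligand tightly and acts largely as a decoy, in part through a soluble form that gene counts do not separate. Flt1 (chromosome 5, minus strand, from 147498414 to 147662821) was at 107, 109 and 111 CPM in injury and at 103, 98.8 and 119 CPM in AZ876 libraries. It was the steadiest of the 10 genes, its highest library being 1.20 times its lowest, and its log2 fold change was −0.03 ± 0.11 (SE; 95% interval −0.28 to 0.23) with an edgeR adjusted p of 0.914.

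Kdr (chromosome 5, minus strand, from 76093487 to 76139118) was at 13.5, 9.45 and 11.2 CPM in injury and at 16.7, 14.8 and 15.9 CPM in AZ876 libraries. All AZ876 libraries lay above all injury libraries. Its log2 fold change was 0.47 ± 0.18 (SE), for an edgeR adjusted p of 0.330. Vegfa, a ligand gene, stood the other way and was chosen here after its values were seen. It was at 52.7, 46.2 and 47.7 CPM in injury and at 41.9, 35.8 and 37.4 CPM in AZ876 libraries. The groups did not overlap, where 8.64% of all genes were lower with no overlap. Its log2 fold change was −0.35 ± 0.12 (SE), with an edgeR unadjusted p of 0.0201 and adjusted p of 0.330. Of the other ligand genes of this family listed, Vegfb (−0.15) and Pgf (−0.19) were lower and Vegfc (0.10) and Vegfd (0.50) higher.

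The upstream windows of the receptor genes are shown since the receptors share a ligand. From RefSeq on GRCm38.p6, both on the minus strand, the window of Kdr is chr5:75978456-75978705 and that of Flt1 is chr5:147726012-147726261, with capitals for the same letters as above. Again these coordinates cannot be set beside the gene spans of the table's build.
Kdr: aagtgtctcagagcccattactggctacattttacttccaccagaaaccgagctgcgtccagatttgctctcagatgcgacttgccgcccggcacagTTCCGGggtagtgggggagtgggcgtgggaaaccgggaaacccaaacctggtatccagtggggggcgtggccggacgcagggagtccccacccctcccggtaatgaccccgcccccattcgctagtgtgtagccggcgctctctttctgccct
Flt1: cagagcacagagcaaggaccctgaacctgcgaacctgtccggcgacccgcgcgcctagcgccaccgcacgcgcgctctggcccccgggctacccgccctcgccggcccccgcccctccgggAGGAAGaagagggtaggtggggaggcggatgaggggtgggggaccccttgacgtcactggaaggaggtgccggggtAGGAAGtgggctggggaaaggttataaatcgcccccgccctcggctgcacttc
Kdr held 1 match, to CCGGAA on the opposite strand from 153 to 148 bases before the start, which 12.0% of all windows held. Flt1 held 2 matches to AGGAAG, from 129 to 124 and from 53 to 48 bases before the start, and 29.5% of all windows held at least 1 such match.

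Plvap, the fenestral diaphragm gene (chromosome 8, minus strand, from 71950409 to 71964396), was at 9.78, 12.0 and 7.35 CPM in injury and at 8.82, 6.68 and 5.94 CPM in AZ876 libraries. The groups overlapped, with AZ876 replicate 1 above injury replicate 3. Its log2 fold change was −0.45 ± 0.25 (SE), for an edgeR adjusted p of 0.400, and it was −0.27 without injury replicate 2. Its span overlaps that of Gtpbp3, a gene on the opposite strand with 295 to 590 counts per library against 95 to 229 for Plvap. Since the strand setting of the counting is not given, reads of the overlap cannot be told apart. Gtpbp3 was at 25.0 ± 5.32 CPM in injury and 24.2 ± 3.20 CPM in AZ876 libraries (SD, n = 3 each).

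Vwf, the von Willebrand factor gene (chromosome 6, plus strand, from 125523737 to 125663642), was at 124, 110 and 115 CPM in injury and at 130, 115 and 181 CPM in AZ876 libraries. Only AZ876 replicate 3 stood clearly apart. Its log2 fold change was 0.29 ± 0.18 (SE), for an edgeR adjusted p of 0.428, and it was 0.07 without that library. Megakaryocytes and platelets also hold this factor. Of the 9 platelet and megakaryocyte markers 8 could be tested, Gp1bb was at 0 in all libraries, and the markers summed to 28.4 to 102 CPM in injury and 62.1 to 83.4 CPM in AZ876 libraries. The part of platelets in the Vwf value was not tested.

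**Figure D2:**
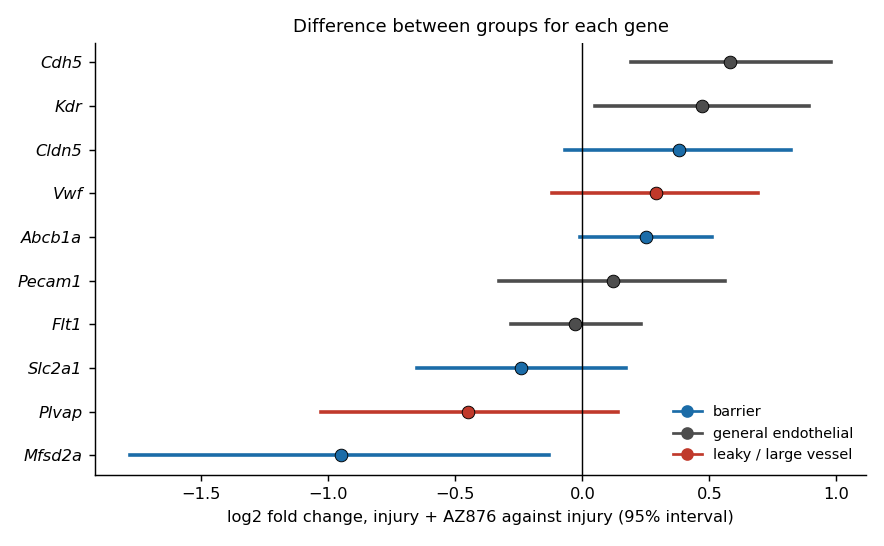
Log2 fold change of injury + AZ876 against injury for each gene, with its 95% interval from edgeR, coloured by role. Cdh5 (0.58) and Kdr (0.47) have intervals above 0 and Mfsd2a (−0.95) has one below 0 before adjustment over all genes, and the barrier genes in blue lie on both sides.

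The two-sided exact permutation test of each gene's log2 CPM gave p = 0.1 for Abcb1a, Mfsd2a, Cdh5 and Kdr, the smallest p that 3 against 3 libraries allow, and p from 0.2 to 0.8 for the other 6 genes. DESeq2 and limma-voom also called 0 of the 10 genes, with adjusted p-values for Cdh5 of 0.115 in DESeq2 and 0.277 in limma-voom.

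The barrier genes were next set against a general endothelial gene within each library, which removes library scaling. Relative to Cdh5, the log2 ratio of Mfsd2a was 0.52, 1.89 and 0.02 in the injury libraries and −0.40, −1.06 and −0.29 in the AZ876 libraries. That of Slc2a1 was 2.53, 3.37 and 2.53 with injury and 1.94, 1.71 and 2.38 with AZ876. Both were lower in every AZ876 library than in any injury library, by 1.39 and 0.80 on average on the log2 scale (group differences of −1.39 and −0.80). Without injury replicate 2 the differences were −0.85 for Mfsd2a and −0.52 for Slc2a1.

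The ratios of Cldn5 and Abcb1a to Cdh5 overlapped between groups, with differences of −0.22 and −0.33, which leaving out 1 library moved to −0.50 and −0.43 when it was AZ876 replicate 3, and to −0.05 and −0.15 when it was AZ876 replicate 2. For the leaky-vessel gene Plvap the log2 ratio to Cdh5 was −2.23, −1.73 and −2.87 with injury and −2.91, −3.63 and −3.30 with AZ876, a difference of −1.01 with no overlap. The ratio of Vwf overlapped, with a difference of −0.32, which was −0.62 with AZ876 replicate 3 left out and −0.04 with AZ876 replicate 2 left out. Among the other general genes, the difference was −0.61 for Flt1, with no overlap, −0.43 for Pecam1 and −0.10 for Kdr. Without injury replicate 2 that of Pecam1 was −0.20, without injury replicate 1 it was −0.65, and without AZ876 replicate 2 that of Kdr was 0.08.

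All 9 ratios were lower on average with AZ876. Cdh5 itself was higher in each AZ876 library and had the highest log2 fold change of the 10 genes (0.58). The shared direction of the 9 differences thus follows from the choice of reference. Flt1, for example, had a log2 fold change of −0.03 before it was set against Cdh5. The exact two-sided permutation p was 0.1 for Slc2a1, Mfsd2a, Flt1 and Plvap, the smallest possible, and 0.225 after Benjamini-Hochberg adjustment over the 9 ratios, and the other 5 gave p from 0.2 to 0.7. Against Pecam1 in place of Cdh5, the difference changed sign for Cldn5 (0.22), Abcb1a (0.11), Kdr (0.34) and Vwf (0.12), and it was −0.36 for Slc2a1, −0.96 for Mfsd2a, −0.57 for Plvap and −0.18 for Flt1. The lower mean of Slc2a1, Mfsd2a, Plvap and Flt1 was found against both reference genes, and that of Cldn5, Abcb1a, Kdr and Vwf against Cdh5 alone. Both references had a log2 fold change above 0 (0.58 for Cdh5 and 0.12 for Pecam1). A gene near 0, such as Flt1 (−0.03), is thus lower against either by the choice of reference.

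**Figure D3:**
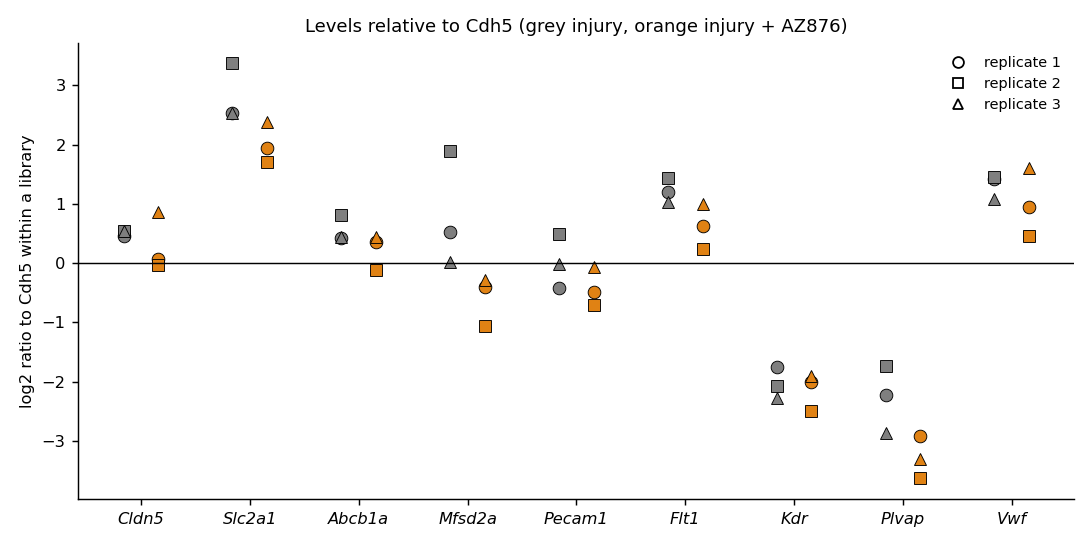
Log2 ratio of each gene to Cdh5 within a library, grey for injury and orange for injury + AZ876, with marker shape for the replicate number. The groups do not overlap for Slc2a1, Mfsd2a, Flt1 and Plvap, and injury replicate 2, the library with the lowest Cdh5 (40.2 CPM), is the highest point for Slc2a1, Abcb1a, Mfsd2a, Pecam1, Flt1 and Plvap.

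Averaged on the log2 scale, the 4 barrier genes stood above the mean of Cdh5 and Pecam1 by 1.19, 1.41 and 0.89 in the injury libraries and by 0.73, 0.47 and 0.88 in the AZ876 libraries. The difference between group means was −0.47, and the values nearest each other were 0.89 and 0.88. Plvap and Vwf together stood at −0.20, −0.39 and −0.88 relative to the same pair in injury and at −0.74, −1.24 and −0.82 with AZ876, an overlapping difference of −0.45. It was −0.29 without AZ876 replicate 2. These averages over a few chosen genes were not tested, and the genes averaged lay on both sides of 0 in log2 fold change, Cldn5 (0.38) against Mfsd2a (−0.95) and Vwf (0.29) against Plvap (−0.45). The reference genes Cdh5 (0.58) and Pecam1 (0.12) were both above 0, so part of each difference comes from the reference. Flt1 and Kdr, also general endothelial genes, were not part of that reference.

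Across the 6 libraries the genes fell along more than 1 pattern, described here with no test since the libraries share their groups. The closest pairs in log2 CPM were Mfsd2a with Plvap (Pearson r = 0.85), Slc2a1 with Mfsd2a (0.82), Cldn5 with Vwf (0.77) and Cdh5 with Kdr (0.72). The most opposed pair was Cldn5 with Plvap (−0.95), followed by Mfsd2a with Cdh5 (−0.86) and Slc2a1 with Kdr (−0.82). Plvap stood at 15.5, 20.6 and 9.19 CPM per 100 CPM of Cldn5 in the injury libraries and at 12.5, 8.16 and 5.46 in the AZ876 libraries, a quantity chosen after the values were seen, and its groups overlapped. Cdh5 and Pecam1, both general endothelial genes, had an r of 0.17, and Flt1 and Kdr had −0.15.

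**Figure D4:**
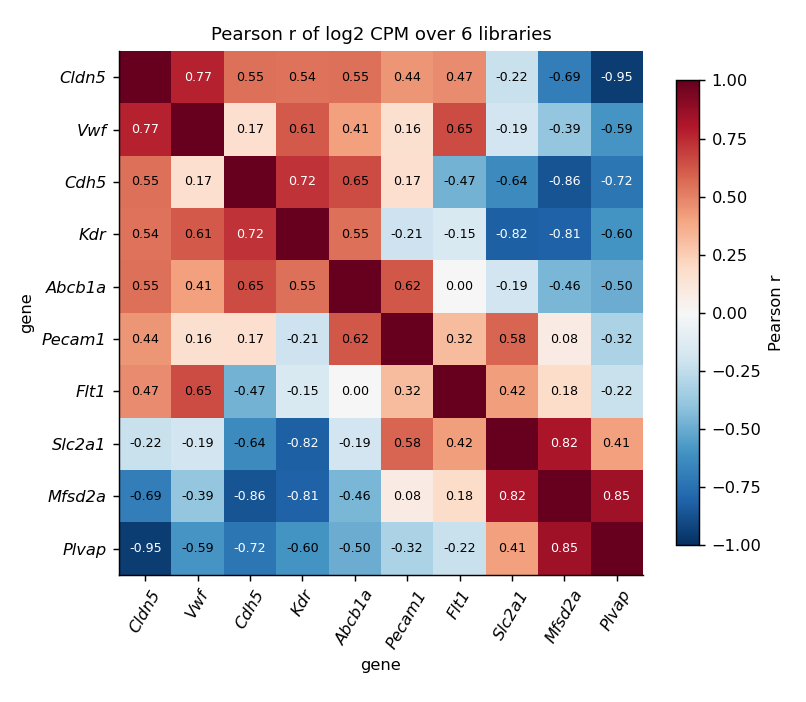
Pearson r of log2 CPM over the 6 libraries for each pair of genes. Slc2a1, Mfsd2a and Plvap form a block with r from 0.41 to 0.85 and are mostly negative against Cldn5, Vwf, Cdh5 and Kdr.

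Per kilobase of exon, so that genes can be compared, Slc2a1 had the highest mean level over the 6 libraries, 87.6 CPM per kb, followed by Cldn5 at 54.5 and Mfsd2a at 30.4. Cdh5 (13.9) and Abcb1a (13.7) came next and exchanged places between libraries. Pecam1 (8.07), Vwf (8.03) and Flt1 (7.99) could not be ordered beyond their spread. Plvap (4.24) and Kdr (1.5) were lowest, each below the gene above it in all 6 libraries and with no overlap of ranges. Slc2a1 lay above Cldn5 in all 6 libraries, although their ranges over libraries overlapped, and Cldn5 lay above Mfsd2a in 5 of 6, the exception being injury replicate 2. Mfsd2a varied most, with a coefficient of variation of 59.2%, and Flt1 least, with 6.33%. Exon lengths were the union of all exons annotated for a gene in GENCODE M21, which can exceed the length of any single transcript. They may also differ from those of the annotation the authors used, and the order of the genes rests on them.

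By likeness to Cdh5 in log2 CPM over the 6 libraries, the 10 closest of 12398 genes ranked had r from 0.977 to 0.999, and Ptgds, Abca8b, Wnt5a, Vangl1, Ptn, Mgp, Abi3bp, Sfr1 and Ecrg4 were among them. Among the other 9 genes described here the closest was Kdr at rank 1775 and the next Abcb1a at rank 2441. The 5 closest to Plvap were Arpc1a, Csmd3, Galnt17, Atg16l1 and Cops8, with r from 0.994 to 0.997, and Mfsd2a came at rank 1794. Ranks over 6 libraries rest on few points.

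Other genes of the same pathways were counted from lists, of which some share genes. In edgeR 0 members of any list passed the test over all genes. The median log2 fold change of all 17599 genes tested was 0.00, and 50.5% of them were above 0. Over the lists the median was 0.02 for tight junction genes, 0.22 for barrier transporters and for Wnt and transcription factor genes, 0.40 for general endothelial genes, 0.54 for leaky, peripheral and activated vessel genes and 0.52 for caveolar genes. The median was 0.08 for barrier transporters without AZ876 replicate 3 and 0.10 for junction genes without injury replicate 2.

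Of the 11 further junction genes tested, 6 were above 0 and 5 below, and 2 were higher and 0 lower at an unadjusted p under 0.05, where 7.98% of all genes were higher and 6.74% lower. Lsr, which encodes a receptor of tricellular junctions, was at 7.46 ± 0.760 CPM in injury and 10.5 ± 0.490 CPM in AZ876 libraries (SD, n = 3 each). Ocln, the occludin gene, was at 12.5, 12.7 and 15.7 CPM in injury and 21.5, 18.9 and 16.8 CPM in AZ876 libraries, a log2 fold change of 0.48 ± 0.17 (SE). Of 20 further transporters, 16 were above 0, with 3 higher and 1 lower at an unadjusted p under 0.05. Abcg2, an efflux pump gene of the barrier, was at 52.0 ± 5.92 and 64.2 ± 3.88 CPM and did not overlap between groups, as for Abcb1a. Slco2b1, an organic anion transporter gene, was at 65.8 ± 5.99 and 85.0 ± 12.8 CPM. Its groups overlapped, with injury replicate 3 at 72.6 CPM and AZ876 replicate 1 at 72.4 CPM.

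Wnt signals from neural tissue hold the barrier in place through receptors such as the Adgra2 and Reck pair. In this list 15 of 20 genes were above 0. At an unadjusted p under 0.05, 4 were higher and 0 lower, against 7.98% and 6.74% of all genes. Nr2f2, a transcription factor of venous endothelium that fibroblasts also make, was at 40.1, 25.4 and 44.2 CPM in injury and 63.5, 85.7 and 73.1 CPM in AZ876 libraries, with no overlap and a log2 fold change of 1.02 ± 0.22 (SE). DESeq2 called it, with an adjusted p of 0.0145. Adgra2 was at 41.6 ± 9.01 CPM in injury and 56.8 ± 1.02 CPM in AZ876 libraries.

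Of the 27 further general endothelial genes tested, 24 were above 0 and 3 below. At an unadjusted p under 0.05, 5 were higher and 0 lower, against 7.98% and 6.74% of all genes. The groups did not overlap for 6, all higher, where 10.2% of all genes were higher with no overlap. The medians of such lists describe these libraries and were not tested. Clec14a, a lectin gene of endothelium, was at 7.14 ± 0.932 and 13.8 ± 4.74 CPM, and Icam2, an adhesion gene, at 4.11 ± 1.65 and 8.34 ± 0.371 CPM. Without injury replicate 3 the list's median was 0.61.

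Caveolae carry transcytosis that MFSD2A restrains, and they also abound in fibroblasts and smooth muscle. Of 7 caveolar genes 6 were above 0, and 5 were higher at an unadjusted p under 0.05, each with no overlap, against 7.98% of all genes higher at that p and 10.2% higher with no overlap. Cav1, the caveolin-1 gene, was at 57.5, 38.3 and 57.9 CPM in injury and 81.5, 96.6 and 90.4 CPM in AZ876 libraries, with a DESeq2 adjusted p of 0.0215 and an edgeR adjusted p of 0.330. Cav2 was at 46.6 ± 7.47 and 66.5 ± 3.72 CPM. Cav1 and Cav2 were higher with AZ876 and Mfsd2a lower, the latter by a log2 fold change of only −0.38 without injury replicate 2. A link between Mfsd2a and the caveolar genes was not tested, nor was the part of fibroblasts in the caveolar values.

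The further leaky, peripheral and activated vessel genes had 15 of 17 tested above 0, opposite to Plvap, with 7 higher and 1 lower at an unadjusted p under 0.05, against 7.98% and 6.74% of all genes. All 10 myeloid and all 9 fibroblast markers were also above 0, and the part of such cells in this list was not tested. Nid2, a basement membrane gene, was at 17.6 ± 5.95 and 38.3 ± 9.63 CPM (DESeq2 adjusted p of 0.0402), and Cd36, a fatty acid receptor gene that macrophages also express, at 7.76 ± 6.30 and 39.0 ± 20.1 CPM.

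Of 23 VEGF, angiopoietin and Notch genes, 15 were above 0, and the median was 0.39 (0.18 without injury replicate 2). At an unadjusted p under 0.05, 6 were higher and 2 lower, against 7.98% and 6.74% of all genes. With no overlap between groups, 7 were higher and 5 lower, against 10.2% and 8.64% of all genes. Angpt2, which encodes a ligand that loosens vessels, was at 10.1 ± 0.942 and 15.8 ± 2.64 CPM. Angpt1, the other angiopoietin gene of the list, named after its values were seen, was also higher. It was at 20.0 ± 5.91 and 31.6 ± 3.47 CPM with no overlap between groups. Efnb2, an arterial ephrin gene, was at 16.6 ± 6.17 and 36.6 ± 8.65 CPM with a DESeq2 adjusted p of 0.0402. Arterial and venous genes had 12 of 14 above 0 with a median of 0.34 (0.22 without AZ876 replicate 2 and 0.55 without injury replicate 3). Of them 4 were higher and 0 lower at an unadjusted p under 0.05, against 7.98% and 6.74% of all genes. The DESeq2 calls on these lists included Nr2f2, Nid2, Cav1 and Efnb2, all higher, where DESeq2 called 1.01% of all genes.

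**Figure D5:**
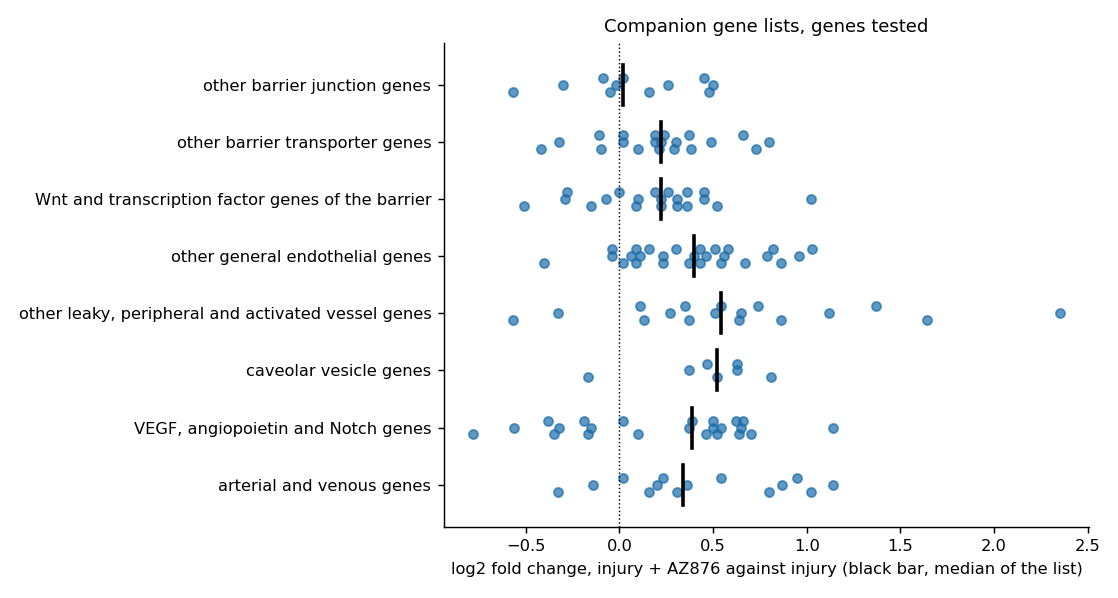
Log2 fold change of injury + AZ876 against injury for each tested gene of 8 lists, with the list's median as a black bar. The medians run from 0.02 for junction genes to 0.54 for leaky, peripheral and activated vessel genes, against 0.00 for all genes tested.

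Markers of other cells were also counted, and 0 of them passed the edgeR test. All 9 fibroblast markers had a log2 fold change above 0, 6 of them at an unadjusted p under 0.05 (7.98% of all genes were higher and 6.74% lower at that p), and they summed to 956 to 2310 CPM in injury and 2850 to 3780 CPM in AZ876 libraries. Postn was at 34.4 ± 6.00 and 55.1 ± 8.44 CPM and Twist1 at 4.13 ± 1.31 and 8.05 ± 0.848 CPM. All 10 myeloid markers were above 0, 5 at an unadjusted p under 0.05, and summed to 2290 to 4180 and 3130 to 8280 CPM, with Ptprc at 43.6 ± 11.3 and 72.7 ± 19.3 CPM and Aif1 at 34.6 ± 6.32 and 53.3 ± 13.3 CPM. All 8 neuron markers were below 0, 3 at an unadjusted p under 0.05, and summed to 2550 to 3560 and 1180 to 2740 CPM, with Tubb3 at 440 ± 70.2 and 261 ± 72.9 CPM and Nefl at 805 ± 53.0 and 481 ± 153 CPM. Their part in the values of the endothelial genes, Cdh5 among them, was not tested.

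Of 12 pericyte and smooth muscle markers tested, 8 were above 0 with a median of 0.24 (0.13 without AZ876 replicate 3), and the 13 markers summed to 759 to 999 CPM in injury and 952 to 1320 CPM in AZ876 libraries. Pdgfrb, the pericyte receptor gene that fibroblasts share, was at 66.1 ± 2.37 and 86.1 ± 7.93 CPM, and Anpep at 49.7 ± 25.0 and 114 ± 45.8 CPM. Vtn, the highest of the 13 in level, was at 356 ± 98.1 and 600 ± 147 CPM. The 4 below 0 included Rgs5 at 171 ± 37.9 and 169 ± 7.46 CPM and Abcc9 at 13.1 ± 1.69 and 10.6 ± 1.35 CPM. Lymphatic markers had 3 of 6 tested above 0 and 3 below, with a median of −0.02. The 7 markers summed to 190 to 208 and 215 to 283 CPM. The highest of them in level were Reln at 108 ± 8.54 and 125 ± 15.4 CPM and Pdpn at 57.0 ± 5.86 and 97.6 ± 27.2 CPM. Flt4 was at 8.78 ± 3.51 and 5.95 ± 0.103 CPM and Lyve1 at 4.23 ± 2.52 and 3.2 ± 0.868 CPM. All 6 erythroid markers were above 0, with Hbb-bt at 247 ± 92.2 and 858 ± 887 CPM. Astrocyte markers had 5 of 8 above 0 and 3 below, and summed to 11300 to 15300 and 10900 to 16900 CPM. Slc1a3 was at 168 ± 17.0 and 210 ± 41.3 CPM and Aqp4 at 913 ± 354 and 1300.0 ± 282 CPM. In the other direction, Slc1a2 was at 1660 ± 137 and 1430 ± 109 CPM and Aldh1l1 at 111 ± 17.2 and 94.0 ± 14.9 CPM. Slc1a2 alone of these markers had no overlap between groups. All 7 oligodendrocyte markers were below 0 and summed to 26400 to 28700 and 20500 to 25500 CPM, with Mobp at 3340 ± 136 and 2670 ± 341 CPM and Mag at 836 ± 68.6 and 686 ± 67.6 CPM. Of the 8 platelet genes tested, 5 were above 0 and 3 below, with a median of 0.10. That median was −0.29 without injury replicate 1 and 0.77 without injury replicate 2. Itgb3 was at 12.2 ± 3.93 and 16.5 ± 0.819 CPM and Pf4 at 9.90 ± 4.57 and 13.7 ± 2.78 CPM. Ppbp, in contrast, was at 13 ± 11 and 13 ± 2.35 CPM, and Gp1ba at 1.75 ± 1.49 and 1.53 ± 0.161 CPM.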

How the data were processed

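The deposited table holds the authors' raw read counts per gene for 6 libraries, not normalised, 1 column per library. Per the submitters' processing notes, the tools were fastp 0.23.0 and HISAT2 2.1.0. Which counting tool, strand setting, rule for multi-mapping reads, genome build or annotation was used is not given here. The 148 symbols on more than 1 row had identical counts on each, and 1 row was kept. Each column was matched to its library through the labels' names, and all samples carry the same batch label. P-values measure the spread between libraries, which may be technical in part.

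Genes were filtered with edgeR's filterByExpr (17599 kept, all 10 genes among them) and scaled by TMM. AZ876 was tested against injury in edgeR 4.0.16 (R 4.3.3) by the quasi-likelihood F-test with robust dispersion, with Benjamini-Hochberg adjustment over all genes and a threshold of 0.05. The SE of a log2 fold change is its size divided by the square root of F. Ratios and exact permutation tests, over 20 assignments, used log2 CPM with a prior count of 2. Levels per kb used the union of annotated exons of each gene in GENCODE M21. The fits were tested on simulated data. Alternatives were DESeq2 1.42.0, limma-voom (limma 3.58.1), other scaling, no filter, a replicate block and leaving out each library. Besides the 10 genes, the 2 genes of smallest p of each list are named, except some that are not reported here. The genes and lists were chosen with earlier results of these data known.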

Additional observations from a re-analysis of the deposited data

How the results depend on the processing

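For the 10 genes, 0 passed the threshold under every alternative run. The count over all 17599 genes was 0 with edgeR, with library totals alone, with DESeq2's size factors in edgeR and with limma-voom, 178 with DESeq2 and 6 with no low-count filter, and leaving out 1 library gave 0 to 363, the highest without AZ876 replicate 1. The cause was not tested. The groups share replicate numbers, and with the replicate block the count was 2, both higher. The numbers are not shown to pair the samples: same-numbered deviations from the group means had r = 0.39, −0.14 and 0.32, and injury replicate 2 did not correlate best with its own number (0.15 with AZ876 replicate 1). With 1 library left out, the log2 fold change of Pecam1 ranged from −0.08 to 0.24, that of Flt1 from −0.11 to 0.02, that of Abcb1b from 0.00 to 0.39 with a change of sign at 0.00, and the difference in the ratio of Kdr to Cdh5 from −0.22 to 0.08. The other 8 genes kept their sign. With Pecam1 as the reference, the differences were 0.22 for Cldn5, 0.11 for Abcb1a, 0.34 for Kdr and 0.12 for Vwf, opposite to those against Cdh5. The median of the VEGF, angiopoietin and Notch list was 0.18 without injury replicate 2 and 0.58 without injury replicate 3, and without AZ876 replicate 1 edgeR called 3 neuron markers and 1 gene each of the lymphatic (Pdpn), arterial and venous, and erythroid lists. Library totals alone moved the median of all genes to 0.02.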

Other observations

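Sele, the gene of E-selectin, which activated endothelium displays to leukocytes, was too low to be tested and is named after its values were seen. It had 0, 5 and 2 counts in injury replicates 1, 2 and 3 and 4, 5 and 65 counts in AZ876 replicates 1, 2 and 3. AZ876 replicate 3 was also the library with the highest Cldn5, Vwf, Flt1 and Pecam1 and the highest summed erythroid markers. Dll4, the Notch ligand gene of sprouting tip cells and arteries, was at 6.46, 12.2 and 4.23 CPM in injury and at 5.68, 3.79 and 3.90 CPM in AZ876 libraries, and was likewise named after its values were seen. Its highest library, injury replicate 2, was the one in which Mfsd2a, Slc2a1 and Plvap were highest.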
